A study of Homo sapiens with 6 samples.

Results

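The BCL2 family of apoptosis regulators was examined in A549 cells, an established human line from a lung adenocarcinoma, on 1-colour Affymetrix arrays. The 10 genes were BCL2, BCL2L1, MCL1, BAX, BAK1, BCL2L11, BBC3, PMAIP1, BID and BIK, and every probe set that the platform annotation assigned to exactly 1 of them was taken, 47 of the 49395 probe sets on the array. The probe sets were taken by gene name, but the family itself was chosen with earlier results of these data known. A probe set is a group of short probes read together as 1 log2 signal.

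The cells had received a lentivirus with a short hairpin RNA, an RNA that is processed in the cell into a guide for the breakdown of matching transcripts. Arrays labelled shTIGD1 (3 arrays) came from cells with a hairpin against TIGD1, a gene derived from a transposase. Arrays labelled shControl (3 arrays) came from cells with a negative control hairpin, called shNC in the treatment protocol. Both groups were grown in DMEM with serum. The labels give no time after infection and do not say that replicates were separate cultures. The p-values therefore rest on a spread among arrays that could be technical. The 19-base sequences are shown because they are all that differs between the groups by design.
shTIGD1: ctgctaacacaacatccat
shNC: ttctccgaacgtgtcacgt

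Proteins of this family decide at the mitochondrial outer membrane whether a cell enters the intrinsic path of apoptosis. The guardians BCL2, BCL-XL (from BCL2L1) and MCL1 hold the effectors BAX and BAK in check, and the BH3-only proteins, such as BIM (from BCL2L11), PUMA (from BBC3), NOXA (from PMAIP1), BID and BIK, bind the guardians or the effectors when a cell is damaged or deprived of growth signals. Once active, BAX and BAK open the membrane, and cytochrome c leaves to start the caspase cascade. BBC3, BAX and PMAIP1 are known target genes of p53.

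The test did not call TIGD1 lower, and called it higher when arrays were levelled on spiked-in controls, as described below, so the directions given here follow the labels of the arrays. TIGD1 read 6.88, 6.84 and 6.86 on shTIGD1-labelled arrays, against 6.96, 6.93 and 6.85 on shControl-labelled arrays, a log2 difference of -0.06 (SE 0.04, 95% interval -0.16 to 0.04, limma adjusted p = 0.389). The values of the groups overlapped. Array medians lay between 6.27 and 6.28, and the lowest correlation between arrays of 1 group (0.998) was above the highest between groups (0.997). The 12 tested markers of this kind of carcinoma line averaged between 8.50 and 14.15 in shTIGD1-labelled arrays and between 7.63 and 14.19 in shControl-labelled arrays. Of 19 tested markers of immune and endothelial cells, 11 averaged under 5 in both groups, and a mean under 5 is called near background below. The number of arrays limits the precision of every value.

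The genes of the family did not move one way. The transcript of BBC3, which encodes PUMA, was 1.67-fold lower in shTIGD1-labelled arrays by both of its probe sets, and that of BAX was 1.26-fold and 1.32-fold lower by both of its own. BCL2L1 was lower by 2 of 3 probe sets and BID by 1 of 4. MCL1 was higher by 3 of 6 probe sets, up to 1.40-fold, and BCL2L11 by 5 of 14, up to 1.42-fold. No probe set of BCL2, BAK1, PMAIP1 or BIK passed the test (0 of 16). With 3 arrays in each group, SEs of the called differences ran on the log2 scale between 0.03 and 0.10. In such bulk samples, less RNA in each cell and fewer cells that express a gene cannot be told apart.

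Across the 47 probe sets, 15 passed limma at an adjusted p of 0.05 over all 49293 probe sets that are not controls, 8 higher and 7 lower in shTIGD1-labelled arrays. The background is high in these data: 22.0% of all probe sets passed, 11.5% higher and 10.6% lower. A count of 15 of 47 is therefore read beside that share, and probe sets of 1 gene are not independent of each other. The median log2 difference was -0.01 over the 47 and -0.02 over all probe sets. Arrays of the groups did not overlap for 23 of the 47, where 40.9% of all probe sets had groups that did not overlap. They did not overlap for 15 of the 15 that passed either. Passing the test makes that likely, so this count adds no support. None of the 10 genes had calls in both directions. With 1 probe set a gene, the one with the highest mean over all arrays, 3 of the 10 genes passed, BBC3, BAX and BCL2L1, all lower (23.8% of 18244 genes passed, 14.0% lower).

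**Figure D1:**
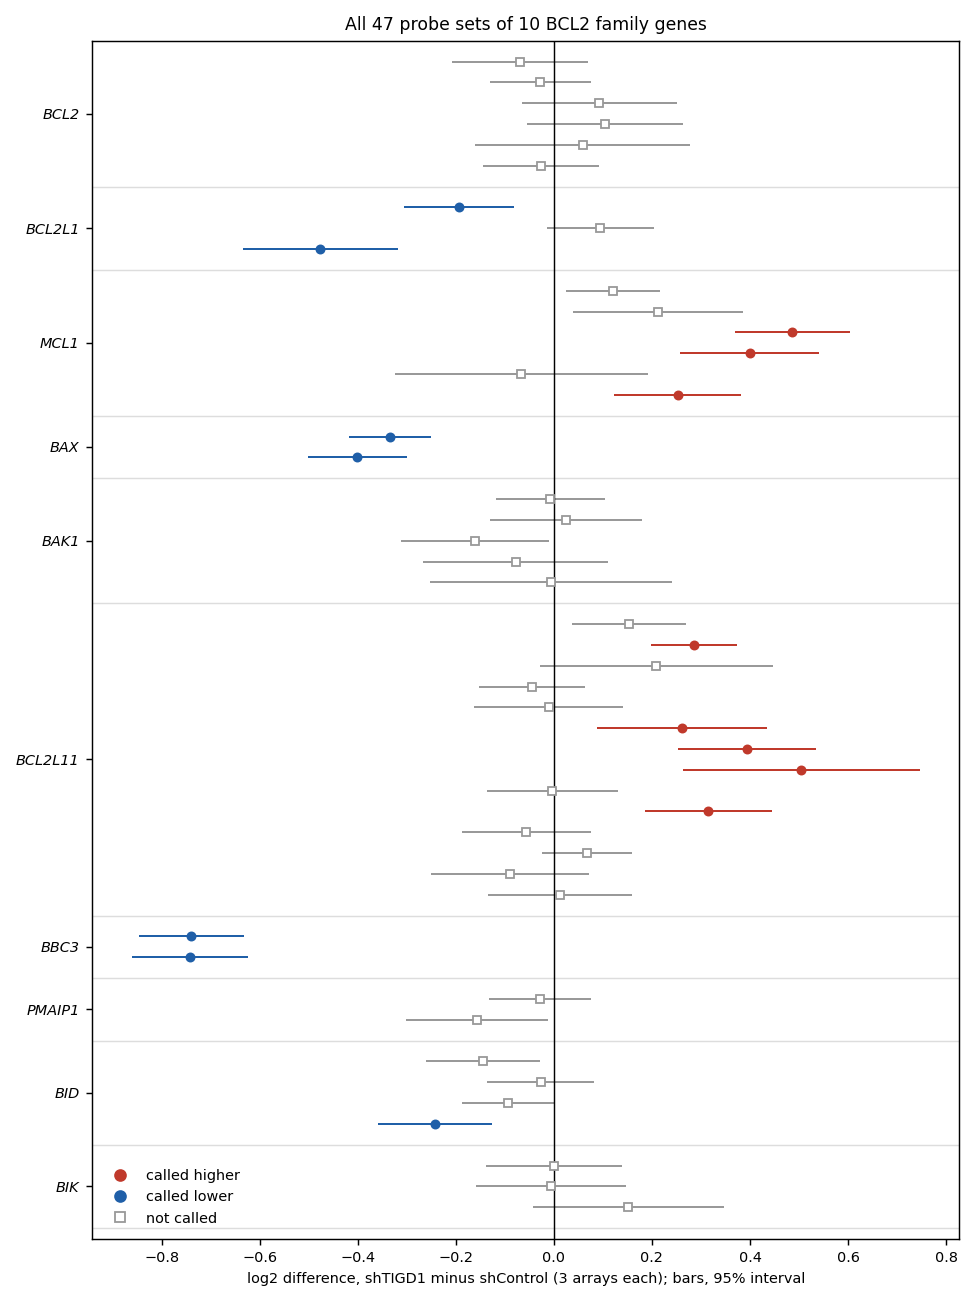
Log2 difference between shTIGD1-labelled and shControl-labelled arrays (x axis) for each of the 47 probe sets, grouped by gene (y axis, within a gene by mean signal), with 95% intervals as bars, n = 3 arrays each. BBC3 and BAX lie left of 0 with all their probe sets, every one called. PMAIP1, with no call, and BID, with 1, also lie left of 0 with all of theirs. MCL1 and BCL2L11 hold the calls to the right. The 2 called BCL2L1 probe sets lie left of 0 with the remaining one on the other side.

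The split between higher and lower depends on how the arrays are levelled. The spiked-in hybridization controls averaged 10.25 in shTIGD1-labelled arrays and 10.46 in shControl-labelled arrays, and the poly-A controls 6.81 and 7.15. Levelling the arrays on them adds 0.21 or 0.33 to every log2 difference, and the median of all probe sets then becomes 0.19 or 0.31 in place of -0.02. With the hybridization controls 51.2% of all probe sets passed, 49.5% higher and 1.68% lower, and with the poly-A controls 77.9%, 77.5% higher and 0.485% lower. All 8 higher calls held under both scalings, but a positive shift moves each of them further from 0, so their holding adds no support. Of the 7 lower calls, 5 held with the hybridization controls (both of BBC3 and of BAX, and BCL2L1 probe set 11759514_at) and 2 with the poly-A controls, both of BBC3. TIGD1 passed as higher with the hybridization controls (0.15, adjusted p = 0.0388, limma) and with the poly-A controls (0.28, adjusted p = 0.00227, limma). With 1 probe set a gene, BAK1, PMAIP1 and BIK likewise passed as higher under both, by 0.18 to 0.21 and by 0.30 to 0.33. Values below are as deposited, and the difference from the median of all probe sets is the same in each of these scalings.

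**Figure D2:**
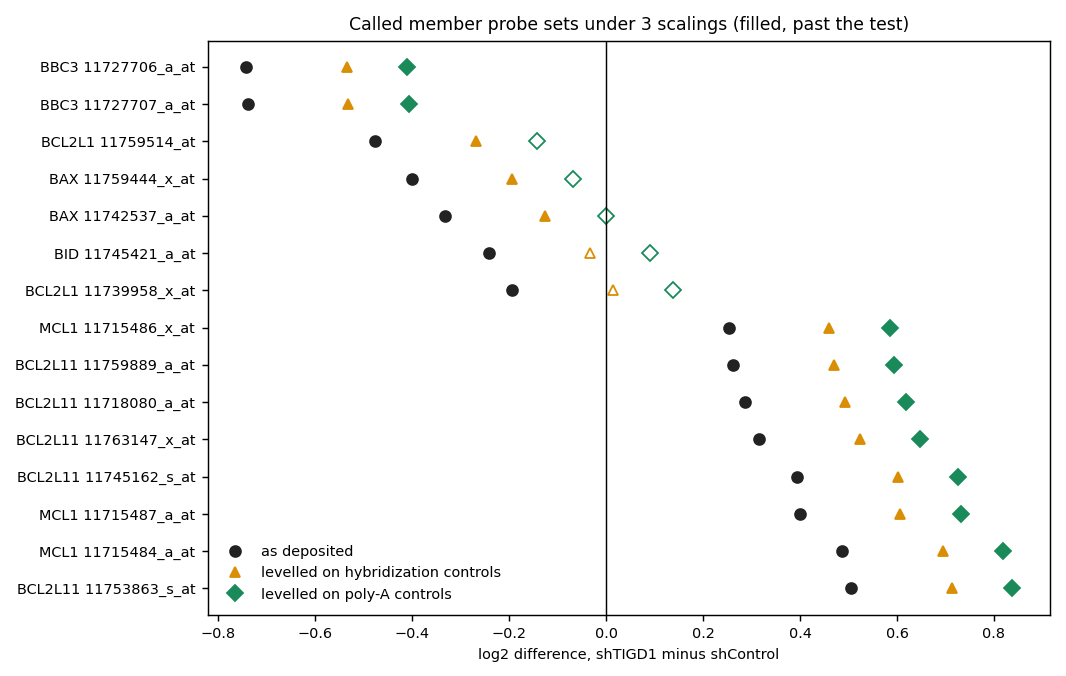
Log2 difference (x axis) of the 15 called probe sets (y axis) as deposited, levelled on hybridization controls and levelled on poly-A controls, with filled symbols for an adjusted p under 0.05. Every point moves right by 0.21 and 0.33; BBC3 remains left of 0 with filled symbols, BAX probe set 11742537_a_at reaches 0 with the poly-A controls, and BCL2L1 probe set 11739958_x_at crosses 0 with the hybridization controls.

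Among the guardians, BCL2 lies on chromosome 18 and is the founding member of the family. Its 6 probe sets differed by -0.07 to 0.10, their intervals together spanned -0.21 to 0.28, and the lowest adjusted p was 0.318 (limma). Probe set 11738351_x_at read 5.72, 5.71 and 5.63 in shTIGD1-labelled arrays, against 5.83, 5.65 and 5.79 in shControl-labelled arrays. The groups overlapped in all 6, and 2 of the 6 were near background.

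BCL2L1, on chromosome 20, is spliced into the long form BCL-XL, which protects cells, and the short form BCL-XS, which opposes it. Its probe sets disagreed. Probe set 11759514_at read 7.29, 7.16 and 7.14 in shTIGD1-labelled arrays, against 7.56, 7.76 and 7.70 in shControl-labelled arrays, a log2 difference of -0.48 (SE 0.07, adjusted p = 0.00432, limma). All 3 shTIGD1-labelled arrays lay below all 3 others. Probe set 11739958_x_at read 10.00, 9.96 and 9.92, against 10.22, 10.14 and 10.10, a difference of -0.19 (SE 0.05, adjusted p = 0.0286, limma), also without overlap. The ending _x_at marks probe sets with some probes that may bind other transcripts. This call ended without any 1 of 5 arrays, all but shControl replicate 3, at adjusted p-values up to 0.0919.

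The remaining BCL2L1 probe set, 11739957_a_at, lay on the other side of 0. It read 8.47, 8.40 and 8.46 in shTIGD1-labelled arrays, against 8.38, 8.28 and 8.38 in shControl-labelled arrays, a log2 difference of 0.09 (SE 0.05, 95% interval -0.01 to 0.20, adjusted p = 0.192, limma). Within each array, 11759514_at lay below 11739957_a_at by a gap of -1.18, -1.24 and -1.31 log2 units in shTIGD1-labelled arrays and -0.82, -0.52 and -0.68 in shControl-labelled arrays. The gap differed by -0.57 between the groups and no levelling of whole arrays alters it. This pair was chosen for its disagreement, so the gap is a description. The files do not say which splice form each probe set reads.

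MCL1, on chromosome 1, encodes a guardian with a very short-lived protein. Of its 6 probe sets, 3 passed and were higher. Probe set 11715484_a_at read 9.04, 9.02 and 9.10 in shTIGD1-labelled arrays, against 8.56, 8.64 and 8.50 in shControl-labelled arrays, a log2 difference of 0.49 (SE 0.05, adjusted p = 0.00155, limma). No array of one group overlapped the other. Probe set 11715487_a_at read 8.87, 8.88 and 8.79, against 8.34, 8.51 and 8.49, a difference of 0.40 (SE 0.06, adjusted p = 0.00533, limma). Probe set 11715486_x_at read 6.39, 6.47 and 6.54, against 6.19, 6.28 and 6.17, a difference of 0.25 (SE 0.05, adjusted p = 0.0191, limma). That call ended without shTIGD1 replicate 2 or 3 or without shControl replicate 1 or 3, at adjusted p-values up to 0.0605.

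The MCL1 probe set with the highest signal, 11715483_s_at, moved less. It read 12.09, 12.09 and 12.06 in shTIGD1-labelled arrays, against 11.92, 11.96 and 12.00 in shControl-labelled arrays, a log2 difference of 0.12 (SE 0.04, adjusted p = 0.0789, limma). The groups did not overlap, yet the difference missed the threshold, as did that of 11715482_a_at (0.21, SE 0.07, adjusted p = 0.0838). Probe set 11715485_a_at was at -0.07 with an SE of 0.11, and its groups overlapped. Of the 6, 5 were above 0, and the median difference was 0.23. When the probe sets of each gene were averaged before the fit, MCL1 passed as higher (0.23, adjusted p = 0.00809, limma).

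Among the effectors, BAX lies on chromosome 19. Probe set 11742537_a_at read 11.02, 10.99 and 11.02 in shTIGD1-labelled arrays, against 11.35, 11.35 and 11.35 in shControl-labelled arrays, a log2 difference of -0.33 (SE 0.03, adjusted p = 0.00174, limma). Probe set 11759444_x_at read 8.65, 8.63 and 8.62, against 9.10, 9.00 and 9.01, a difference of -0.40 (SE 0.04, adjusted p = 0.00175, limma). Both held without each array in turn, with differences between -0.34 and -0.32 for the first and between -0.42 and -0.37 for the other. Relative to the median of all probe sets they were at -0.31 and -0.38, and with the poly-A controls at -0.00 and -0.07, where neither passed.

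BAK1, on chromosome 6, encodes the other effector, which sits in the outer membrane of healthy cells. None of its 5 probe sets passed, with differences between -0.16 and 0.02. Probe set 11748849_a_at read 8.21, 8.10 and 8.22 in shTIGD1-labelled arrays, against 8.21, 8.16 and 8.18 in shControl-labelled arrays, a log2 difference of -0.01 (95% interval -0.12 to 0.10, adjusted p = 0.929, limma). The largest difference, of 11732515_x_at, was -0.16 (SE 0.06, adjusted p = 0.120). Groups overlapped for all 5.

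Among the BH3-only genes, BBC3 on chromosome 19 had the largest difference of the family. Probe set 11727707_a_at read 8.19, 8.19 and 8.28 in shTIGD1-labelled arrays, against 8.98, 8.98 and 8.91 in shControl-labelled arrays, a log2 difference of -0.74 (SE 0.04, 95% interval -0.85 to -0.63, adjusted p = 0.000325, limma). Probe set 11727706_a_at read 7.39, 7.37 and 7.33, against 8.19, 8.10 and 8.04, also a difference of -0.74 (SE 0.05, 95% interval -0.86 to -0.62, adjusted p = 0.000443, limma). The probe sets thus differed by the same amount within their errors, and in both the groups lay far apart compared with the spread of replicates (SD between 0.03 and 0.07). Only 16 of the 18244 genes had a lower log2 difference. With the hybridization controls the probe sets were at -0.53 each, with the poly-A controls at -0.41 each, and both passed.

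BCL2L11, on chromosome 2, encodes BIM, which is made in several splice forms. Of its 14 probe sets, 5 passed, all higher, and 9 did not, between -0.09 and 0.21. Probe set 11753863_s_at read 5.99, 5.94 and 5.61 in shTIGD1-labelled arrays, against 5.39, 5.27 and 5.36 in shControl-labelled arrays, a log2 difference of 0.50 (SE 0.10, adjusted p = 0.0154, limma). Its replicate 3 of the hairpin against TIGD1 lay nearer to the control arrays than the other 2, and the call ended without shTIGD1 replicate 2 (adjusted p = 0.0570). Probe set 11745162_s_at read 6.31, 6.24 and 6.17, against 5.76, 5.91 and 5.87, a difference of 0.39 (SE 0.06, adjusted p = 0.00538, limma). Both carry the ending _s_at, given to probe sets whose probes match transcripts of more than 1 gene or cluster.

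A tighter difference was that of 11718080_a_at, whose probes are shared by transcripts of the same gene. It read 7.24, 7.21 and 7.20 in shTIGD1-labelled arrays, against 6.96, 6.91 and 6.93 in shControl-labelled arrays, a log2 difference of 0.29 (SE 0.04, adjusted p = 0.00328, limma). No array of one group came near those of the other. The other called probe sets were 11763147_x_at at 0.31, near background in both groups (4.78 ± 0.06 against 4.47 ± 0.07, SD, n = 3 each), and 11759889_a_at at 0.26 (adjusted p = 0.0446, limma). The last call was lost without any 1 of 5 arrays, all but shControl replicate 2. Probe set 11718078_a_at, with the highest signal, read 8.03, 8.18 and 8.12, against 7.97, 7.93 and 7.96, a difference of 0.15 that missed the threshold (SE 0.05, adjusted p = 0.0670, limma). Of the 14, 5 were near background, and 9 differences were above 0.

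PMAIP1, on chromosome 18, encodes NOXA, which binds MCL1. Neither of its 2 probe sets passed. Probe set 11724509_a_at read 9.65, 9.76 and 9.69 in shTIGD1-labelled arrays, against 9.74, 9.73 and 9.71 in shControl-labelled arrays, a log2 difference of -0.03 (95% interval -0.13 to 0.08, adjusted p = 0.688, limma). Probe set 11724510_at was at -0.16 (SE 0.06, adjusted p = 0.116), without overlap between the groups.

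BID, on chromosome 22, links death receptors to mitochondria once caspases have cut it. Probe set 11745421_a_at read 8.78, 8.67 and 8.64 in shTIGD1-labelled arrays, against 8.92, 8.93 and 8.97 in shControl-labelled arrays, a log2 difference of -0.24 (SE 0.05, adjusted p = 0.0155, limma). The groups did not overlap, but the call ended without shTIGD1 replicate 2 or 3 or without shControl replicate 3 (adjusted p up to 0.0537). Its other 3 probe sets lay between -0.14 and -0.03 and did not pass, and all 4 were below 0.

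BIK, also on chromosome 22, encodes a BH3-only protein of the endoplasmic reticulum. Its 3 probe sets lay between -0.01 and 0.15 with none past the test. Probe set 11722954_x_at read 6.30, 6.34 and 6.17 in shTIGD1-labelled arrays, against 6.20, 6.32 and 6.29 in shControl-labelled arrays, a log2 difference of 0.00 (95% interval -0.14 to 0.14, adjusted p = 0.998, limma). The groups overlapped in all 3.

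**Figure D3:**
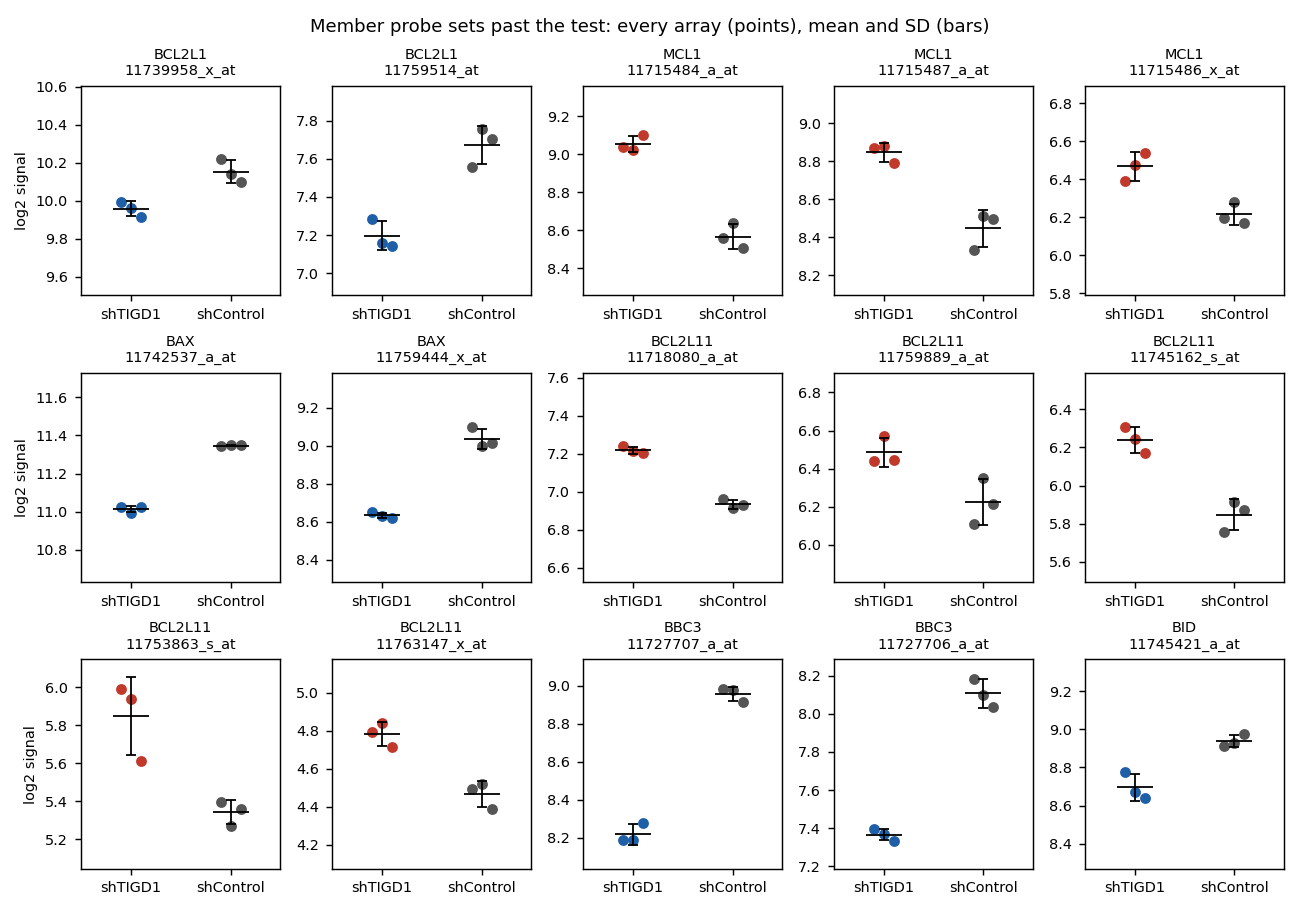
Log2 signal (y axis, each panel spanning the same range around its own mean) of every array for the 15 called probe sets, shTIGD1-labelled left (blue where lower, red where higher) and shControl-labelled right (grey), with mean and SD, n = 3 each. In every panel the arrays of the groups are apart, which the choice of called probe sets makes likely, and most widely for both BBC3 probe sets.

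Promoter windows were found for 8 of the 10 genes, from 250 bases before to 50 after a gene's start, in RefSeq on GRCh38.p14. They are shown for BBC3 and BAX, the genes with every probe set called lower, and for BCL2L11, the gene with the most higher calls. The capitals in BBC3 (chr19:47232618-47232917, minus strand) and BAX (chr19:48954625-48954924, plus strand) mark CACGTG, the E-box bound by MYC and USF proteins, which reads the same on both strands.
BBC3: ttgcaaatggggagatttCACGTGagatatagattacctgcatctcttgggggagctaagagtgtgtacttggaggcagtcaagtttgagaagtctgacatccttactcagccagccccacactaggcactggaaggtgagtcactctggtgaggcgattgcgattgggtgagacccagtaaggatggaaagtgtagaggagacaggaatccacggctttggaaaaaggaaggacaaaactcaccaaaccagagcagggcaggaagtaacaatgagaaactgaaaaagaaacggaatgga
BAX: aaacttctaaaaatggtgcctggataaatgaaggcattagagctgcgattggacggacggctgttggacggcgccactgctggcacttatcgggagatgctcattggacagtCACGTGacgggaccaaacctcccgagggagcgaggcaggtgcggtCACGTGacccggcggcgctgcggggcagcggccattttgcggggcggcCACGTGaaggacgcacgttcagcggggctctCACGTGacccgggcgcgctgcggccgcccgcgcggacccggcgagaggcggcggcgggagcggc
In BCL2L11 (chr2:111120664-111120963, plus strand) the capitals mark GTAAACA, a core of forkhead factor sites, searched together with TGTTTAC, its form on the other strand.
BCL2L11: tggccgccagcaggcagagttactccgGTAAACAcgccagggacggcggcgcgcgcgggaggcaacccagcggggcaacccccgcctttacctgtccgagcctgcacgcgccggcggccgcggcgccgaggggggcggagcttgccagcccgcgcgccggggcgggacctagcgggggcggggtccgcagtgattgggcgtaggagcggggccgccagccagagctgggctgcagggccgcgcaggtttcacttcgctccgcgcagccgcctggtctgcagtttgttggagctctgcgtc

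CACGTG occurred 4 times in the BAX window and 1 time in that of BBC3. It was in 2 of 5 BID windows and in none of BCL2, BCL2L1, BAK1, PMAIP1 or BCL2L11. Of all 35116 windows, 7.26% held at least 1 such match and 0.0142% held 4 or more. GTAAACA or TGTTTAC was found 1 time in the BCL2L11 window and in no other window of the family, against 3.42% of all windows. An exact p53 consensus decamer was in the BAK1 window alone, against 6.63% of all. Also searched on both strands were the GC box GGGCGG and the CCAAT box. CCAAT was in the windows of BBC3, BAX, BAK1 and BCL2L11, against 34.6% of all. A GC box was in windows of BAX, BAK1, PMAIP1, BCL2L11, BCL2L1 and BID, against 45.0% of all. The motifs were chosen after the letters had been seen. A match is a description, and its absence says only that the letters are not in that window.

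BBC3 and BAX are near each other on chromosome 19. Of 55 tested genes that lie between them in the RefSeq order, 17 were called lower and 1 higher in shTIGD1-labelled arrays, and their median log2 difference was -0.11. Among all genes 14.0% were called lower and 9.81% higher, with a median of -0.04. With the hybridization controls 2 of the 55 were lower and 15 higher, where 1.98% of all genes were lower and 47.9% higher. With the poly-A controls 1 was lower and 29 higher, beside 0.652% and 76.5% of all genes. Among 10758 genes with a mean signal of at least 6, the patterns most like that of BBC3 over the 6 arrays were those of NFKB1, AGO1, SESN1, SNAPC3 and FBN2 (Pearson r of 0.999 to 1.00). Since the 6 points form a pair of groups, such values describe a shared difference between the groups.

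Other genes of the pathway, in 5 lists, had 56 tested members, of which 6 rose and 13 fell (limma, 1 probe set a gene). Beside these, 23.8% of all genes passed, 9.81% higher and 14.0% lower. Of the 19 genes that passed, 6 have 1 probe set, 4 have several that were all called the same way in the fit of probe sets (BCL2L15, BIRC2, BAG1 and USP13), and 9 have some that were not called. Of the 37 others, 7 have at least 1 probe set called higher and 3 at least 1 called lower. Of the other BCL2 family genes, 2 of 13 rose and 2 fell by the probe set used (median 0.05, all genes -0.04). Among those not called, BCL2L13 had 3 of 7 probe sets higher and BNIP3L 2 of 6, with 0 lower for both. BOK, an effector-like member, fell by 0.38 (SE 0.04, adjusted p = 0.00144), with 1 of its 3 probe sets lower, and BCL2L12 fell by 0.18 (SE 0.04, adjusted p = 0.0275). BCL2L15 rose by 0.31 (SE 0.06, adjusted p = 0.0138), with 5 of its 5 probe sets higher, and BNIP3, a mitophagy receptor, by 0.16 (SE 0.04, adjusted p = 0.0334), with 1 of 2 higher and the other at -0.03. The guardian BCL2A1, an NF-kB target, was at -0.30 and missed the threshold (SE 0.09, adjusted p = 0.0551).

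Downstream of the membrane, 2 of 12 genes of the apoptosome, caspases and inhibitors of apoptosis rose and 5 fell (median -0.04), by the probe set used. Among the 5 not called, BIRC5 had 7 of 12 probe sets higher and 0 lower, CYCS had 1 of 3 higher and HTRA2 had 1 of 4 lower. CASP6, an executioner caspase, rose by 0.46 (SE 0.07, adjusted p = 0.00662), and BIRC2, which encodes the inhibitor cIAP1, by 0.23 (SE 0.03, adjusted p = 0.00413). AIFM1 and ENDOG, whose proteins leave mitochondria during apoptosis, fell by 0.24 and 0.23 (SE 0.03 and 0.04, limma adjusted p = 0.00433 and 0.0122). The other falls, of APAF1, DIABLO and CASP9, were of 0.21 or 0.22. That of APAF1 was in 1 of its 4 probe sets and that of CASP9 in 1 of its 2. None of these 5 falls held with the hybridization or the poly-A controls. Both rises did, but these scalings move every rise further from 0.

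Of 8 partners at the outer membrane, 1 rose and 2 fell (median -0.07). BAG1, a BCL2-binding co-chaperone, rose by 0.23 (SE 0.04, adjusted p = 0.00904), with 4 of 4 probe sets higher. PGAM5, a phosphatase that binds BCL-XL, fell by 0.23 (SE 0.05, adjusted p = 0.0280), with 3 of 4 lower. VDAC2, a channel that binds BAK, fell by 0.12 (SE 0.03, adjusted p = 0.0450) in the fit of genes, while 0 of its 2 probe sets passed in the fit of probe sets. Of 9 genes of ubiquitin control, 1 rose and 1 fell by the probe set used (median -0.01). Among those not called, KLHL20 had 2 of 4 probe sets higher and CUL3 had 1 of 4 lower. HUWE1, a ligase that marks MCL1 for degradation, fell by 0.20 (SE 0.04, adjusted p = 0.0160), with 1 of 3 probe sets lower, and USP13, which removes ubiquitin from MCL1, rose by 0.21 (SE 0.04, adjusted p = 0.0107). 

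The last list holds 12 transcription factors that act on these genes and MDM2 and MDM4, regulators of p53. Of the 12 factors, 3 fell and 0 rose (median -0.10). NFKB1, a subunit of NF-kB, fell by 0.49 (SE 0.03, adjusted p = 0.000595). FOXO1, a forkhead factor, fell by 0.25, with 2 of 4 probe sets lower, and RELA, another NF-kB subunit, by 0.22, with 1 of 3 lower. CREB1 and MITF did not pass by the probe set used, and each had 1 probe set called higher, of 7 and of 2. MDM2, the ligase that marks p53 for degradation and a p53 target itself, did not pass by its probe set of highest signal (-0.07, adjusted p = 0.336 in the fit of probe sets, limma), yet 7 of its 11 probe sets were lower and 0 higher. The largest of these differences was -1.25 (SE 0.05, adjusted p = 0.000183, limma). Its signals read 6.70, 6.84 and 6.76 in shTIGD1-labelled arrays, against 8.02, 7.96 and 8.08 in shControl-labelled arrays. That probe set and most of the 7 carry the ending _x_at, so some of their probes may bind other transcripts. The called probe set with the ending _a_at was at -0.50 (SE 0.07, adjusted p = 0.00355, limma). A called _x_at probe set was near background, at 3.76, 3.67 and 3.77 against 3.97, 4.07 and 4.04. The MDM2 probe set of highest signal, not called, ends in _a_at. MDM2 was described after its values had been seen.

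With the hybridization controls 49.9% of all genes passed, 47.9% higher and 1.98% lower, and with the poly-A controls 77.1%, 76.5% higher and 0.652% lower. The 56 genes then counted 33 higher and 2 lower with the hybridization controls and 40 higher and 1 lower with the poly-A controls. Of the 13 falls in the 5 lists, 2 held with the hybridization controls, BOK and NFKB1, and 1 with the poly-A controls, NFKB1. All 6 rises held under both, where the added value moves each of them further from 0. With the poly-A controls BCL2L12 (0.15, adjusted p = 0.0283, limma) and VDAC2 (0.21, adjusted p = 0.00809, limma) passed as higher.

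**Figure D4:**
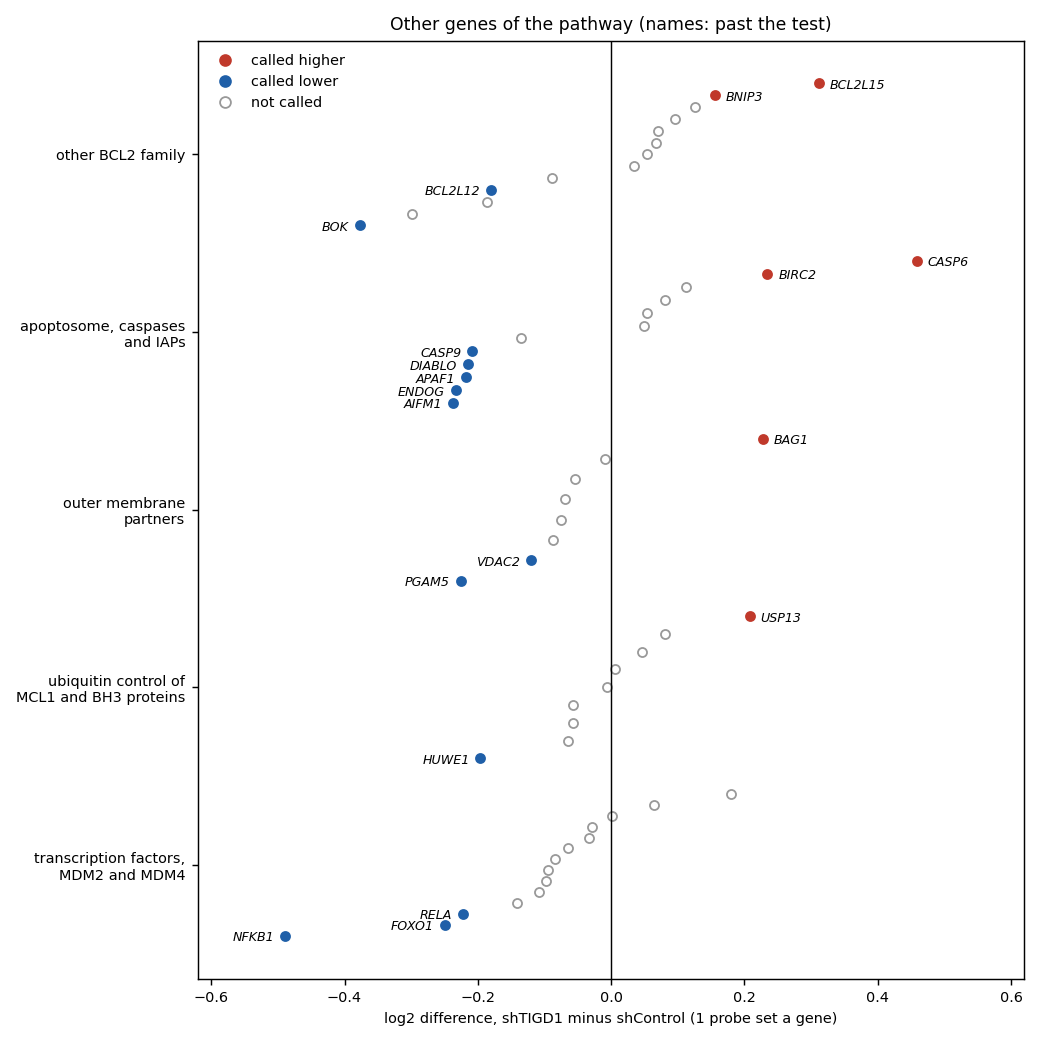
Log2 difference between shTIGD1-labelled and shControl-labelled arrays (x axis) of the 56 tested genes of 5 pathway lists (y axis, ordered within a list), 1 probe set a gene, with names for those past the test. Higher calls reach 0.46 for CASP6 and lower calls reach -0.49 for NFKB1.

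Markers of other cells were in part near background, 11 of 19 for immune and endothelial cells and 5 of 10 for fibroblasts. The 19 markers of immune and endothelial cells averaged between 2.76 and 8.21 in shTIGD1-labelled arrays and between 2.87 and 8.21 in shControl-labelled arrays, with 0 called higher and 1 lower. Of 10 fibroblast markers 2 fell and 0 rose. ACTA2 fell by 0.58, with 1 of its 3 probe sets lower, and COL3A1 by 0.56, with 3 of 5 lower. Of the 12 carcinoma line markers, EPCAM and CDH1, which encode adhesion proteins of epithelia, rose by 0.87 and 0.66, and ALDH3A1 fell by 0.13. These counts stand beside the 9.81% of all genes called higher and 14.0% called lower. With the hybridization and the poly-A controls, 11 and 12 of the 12 carcinoma line markers, 4 and 16 of the 19 immune and endothelial markers and 4 and 6 of the 10 fibroblast markers were called higher. Of all genes, 47.9% and 76.5% were called higher in these scalings, and 1.98% and 0.652% lower. Both fibroblast falls held and that of the immune and endothelial list was lost, and ALDH3A1 passed as higher with the poly-A controls (0.20, adjusted p = 0.0108, limma). Whether these differences have a part in those of the BCL2 family was not tested.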

How the data were processed

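Total RNA of 6 samples was labelled with biotin and hybridized to 1-colour arrays, per the labels' protocols. The authors deposited log2 signals per probe set. The submitters' processing notes name GCOS and RMA. For either tool, a version is not given in the sources used here. That the base is 2 was inferred from how high the values reach. RMA makes the distributions of arrays alike, so a shift common to most transcripts is removed. Of 49395 probe sets, 102 controls were left out of tests, 45278 had exactly 1 gene symbol in the platform annotation, 1333 several and 2682 none. Of the symbols, 45208 matched RefSeq by Entrez identifier and 0 changed. The 47 probe sets of the 10 genes all had 1 symbol.

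All 49293 probe sets, and separately 18244 genes with their probe set of highest mean, were fitted in R 4.3.3 with limma 3.58.1 (lmFit, then eBayes). Each fit set 3 arrays against 3. Tests were two-sided, and p-values were adjusted over the whole table by Benjamini-Hochberg, with a threshold of 0.05. Tables were made with Python 3.11.15 and pandas 2.3.3. No filter on low values was applied. The fit was tested on simulated data. Members and lists were chosen with earlier results of these data known. Named were all members, TIGD1, up to 4 called genes of each list, and the 5 genes most like the member that changed most; further members of lists (CASP9, VDAC2, BCL2A1 and the markers among them) were named after their values were seen. Of 62 entries of the pathway lists, 56 were tested and the others were not analysed here. Alternatives were other scalings, filters, variance models, weighted arrays, a block for the replicate number, other choices of probe set, and leaving out each array.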

Additional observations from a re-analysis of the deposited data

How the results depend on the processing

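Repeated quantile normalization, equal medians and array weights kept all 8 higher and 7 lower calls of the 15 member probe sets, as did eBayes with trend and robust settings. Leaving out each array in turn kept 5 to 8 of the higher and 5 to 6 of the lower calls, and 10 of the 15 held every time. Member calls then numbered 11 to 14 of the 47 probe sets and 2 to 4 of the 10 genes. Among all, 6676 to 8628 probe sets (13.5% to 17.5%) and 2741 to 3386 genes (15.0% to 18.6%) passed. TIGD1 stayed between -0.09 and -0.03. With hybridization and poly-A control scaling, 25250 and 38417 probe sets (51.2% and 77.9%) and 9096 and 14073 genes (49.9% and 77.1%) were called. Beside these shares, 34 and 40 of the 47 member probe sets (72.3% and 85.1%) and 7 and 8 of the 10 member genes were called. These scalings add 1 value to all differences of the comparison. With both, TIGD1 (0.15 and 0.28), BAK1 (0.20 and 0.33), PMAIP1 (0.18 and 0.30) and BIK (0.21 and 0.33) passed as higher. BCL2 moved to 0.14 and 0.26 and BID to 0.064 and 0.19, each past the test with the poly-A controls only. BCL2L1 (probe set 11739958_x_at) moved to 0.013 and 0.14 and BID probe set 11745421_a_at to -0.034 and 0.091. The second brightest probe set turned BCL2L1 to 0.095. Member genes called numbered 6 (2 higher, 4 lower) with the mean of all probe sets, 6 with a signal of at least 5 and 6 with trend and robust settings. Of all genes tested, 26.0%, 40.8% and 31.8% passed in these settings, against 23.8% in the main fit. With the replicate number as a block, 6462 probe sets and 2391 genes passed, 13.1% of each. Among members, 12 of the 47 probe sets and 3 of the 10 genes passed with the block. MCL1 11715486_x_at, BCL2L1 11739958_x_at and BID 11745421_a_at missed the threshold there. Correlations of same-numbered deviations from the group means were -0.03, -0.13 and -0.09, and those of other pairs lay between -0.02 and 0.11. No pairing by number is evident, but such weak correlations cannot exclude one. Dim signals limit the 8 member probe sets near background.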
